A study of Jaculus jaculus with 29 samples.

Results

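The 10 astrocyte genes described here are Gfap, Vim, Aqp4, Slc1a2, Slc1a3, Glul, Gja1, Gjb6, Aldh1l1 and S100b, a list chosen by symbol as markers and working parts of the astrocyte, among 29170 genes of the count table. The gene names deposited by the authors held 6 of them. Slc1a2, Gjb6, S100b and Glul were identified by their position in a RefSeq table of the same assembly, where they overlapped the Ensembl gene over 0.982, 0.937, 0.988 and 0.852 of their spans. All 10 passed the filter on low counts, and no other annotated gene overlapped any of them.

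Polyadenylated RNA of punches of the supraoptic nucleus, a hypothalamic nucleus of vasopressin and oxytocin neurons, was sequenced in the lesser Egyptian jerboa (Jaculus jaculus), a desert rodent. Dehydrated animals had their water restricted for 11 days and gave 10 libraries, 6 labelled female and 4 labelled male. Rehydrated animals had 7 days of restriction and then 3 days with free water and gave 9 libraries, 4 labelled female and 5 labelled male. Control animals drank freely and gave 10 libraries, 5 labelled female and 5 labelled male. Animals of all groups were housed singly on dry food, and strain, alleles and ages are not given in the sources used here.

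Astrocytes take up glutamate and potassium, move water through aquaporin-4, and are joined to each other by gap junctions. In the rat supraoptic nucleus their processes are known to withdraw from between magnocellular neurons during dehydration and to return when water is given back. Gfap and Vim encode intermediate filaments of this glial cytoskeleton, and Gfap is widely used to stain it.

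Total counts ran from 14084542 to 18856620 in Dehydrated libraries, from 14235024 to 18516535 in Rehydrated libraries and from 10797577 to 17834438 in Control libraries. Control M01 had the smallest total and stood apart from the rest: its score on the leading principal component, which held 21.7% of the variance of log2 CPM, was 137, and the other libraries scored between -13.7 and 7.76. Its summed level of 11 microglial genes was 624 CPM, against 179 to 253 CPM in the other Control libraries. Leaving it out moved several values by over 1.5 times, and the values without it stand beside them. The letter in a library's name and its sex label disagreed in Control F03, labelled male, and in Control M05 and Dehydrated M02, labelled female. The column headers number the F-named libraries 15 to 28 and the M-named ones 1 to 14, apart from Rehydrated M04 at 49, so the letter also follows the order in which the libraries were numbered. Treatment follows it too within a letter: M-named Control libraries are 1 to 5, Dehydrated 6 to 10 and Rehydrated 11 to 14 with 49, and F-named Control libraries 15 to 19, Dehydrated 20 to 24 and Rehydrated 25 to 28. The labels do not say whether animals shared a litter, and p-values measure the spread between these libraries. Since the tissue is a mixture, fewer astrocytes and less RNA per astrocyte cannot be told apart.

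After 11 days of water restriction none of the 10 genes passed the test. With p-values of edgeR's quasi-likelihood test, adjusted by the Benjamini-Hochberg method, 0 of 10 had an adjusted p under 0.05 in Dehydrated against Control, where 0.125% of the 17558 genes tested did. The count was also 0 of 10 by DESeq2, where 0.172% of 25653 genes passed. Without Control M01 it was 0 of 10 by DESeq2, where 0.183% of 25626 genes did. Percentages by DESeq2, here and below, are of all genes with any count, and those by edgeR of genes past the filter on low counts. At an unadjusted p under 0.05 there was 1 member, Gjb6, against 6.37% of all genes. The median log2 fold change of the 10 was 0.08, with 6 above 0 and 4 below, beside a median of -0.003 over all genes. Without Control M01 the median of the 10 was 0.01.

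**Figure D1:**
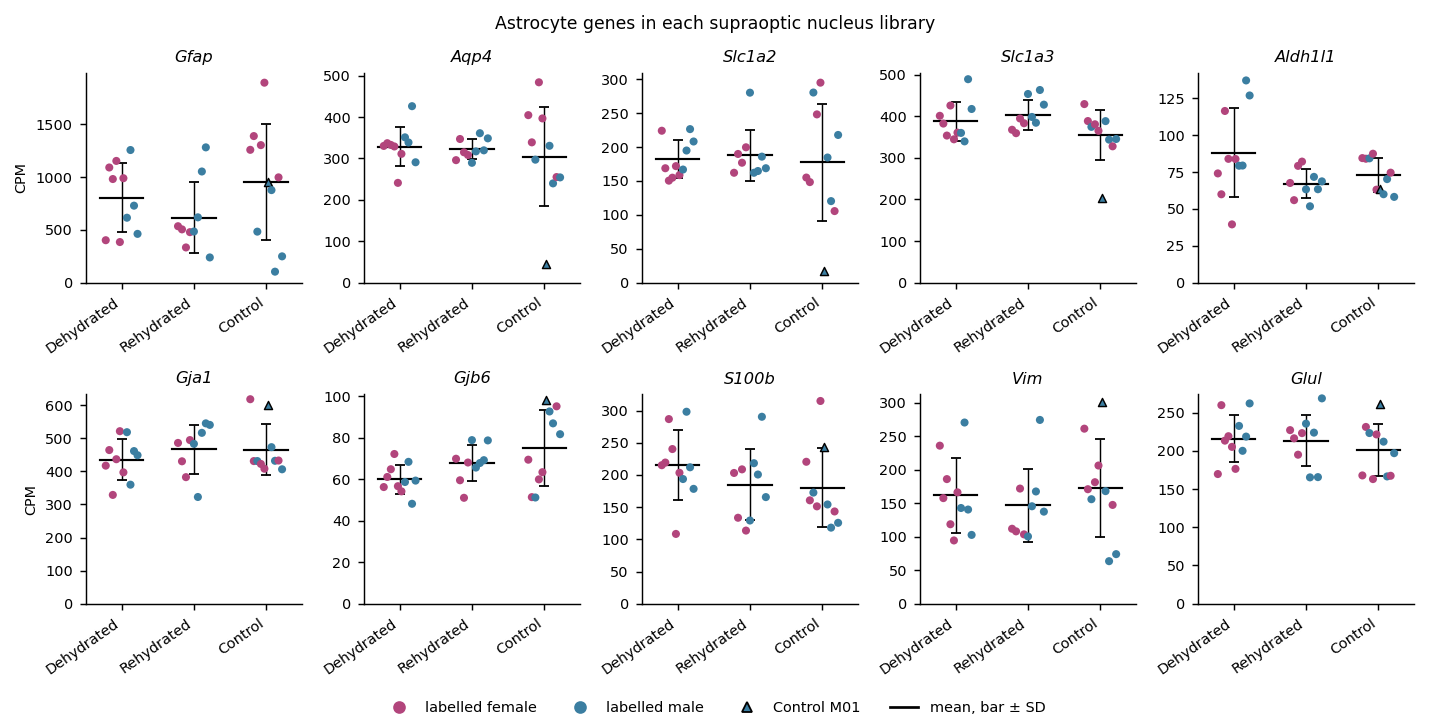
Level of each astrocyte gene in every library, in CPM on a linear axis from 0, by group: points are libraries coloured by sex label, the triangle is Control M01, and bars give mean ± SD. The groups overlap for all 10 genes, as for nearly all genes. Of 17558 genes 0 did not overlap in either comparison with Control, and 1 in Rehydrated against Dehydrated. Control M01 lies at 45.8 CPM for Aqp4 and 16.9 CPM for Slc1a2.

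Gfap, the main filament of mature astrocytes (ENSJJAG00000020764, chromosome 9, 116140595 to 116150199, plus strand), was the most variable of the 10. Its lowest, median and highest levels were 384, 855 and 1256 CPM in Dehydrated libraries, 238, 504 and 1281.5 CPM in Rehydrated libraries, and 103, 977 and 1894.5 CPM in Control libraries. Control libraries alone therefore spanned the values of both other groups. Means were 806 ± 329 CPM in Dehydrated, 614 ± 338 CPM in Rehydrated and 951 ± 552 CPM in Control (SD, n = 10, 9 and 10). Its log2 fold change was -0.21 (SE 0.37) in Dehydrated against Control (adjusted p = 0.900) and -0.51 (SE 0.40) in Rehydrated against Control (adjusted p = 0.774). The 95% interval for Dehydrated against Control reached from 0.511 to 1.47-fold. Its biological coefficient of variation, the spread between libraries beyond counting noise, was 55.8%, above that of 99.6% of the 6896 genes that averaged 5 log2 CPM or more, whose median was 13.1%.

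Vim, which encodes vimentin, a filament of immature and reactive astrocytes and of vascular cells (ENSJJAG00000007888, chromosome 15, 62589548 to 62597745, minus strand), had 94.3, 150 and 270.2 CPM as lowest, median and highest levels in Dehydrated libraries. In Rehydrated libraries these were 100.2, 137 and 274 CPM, and in Control libraries 63.4, 169 and 300.4 CPM. The groups overlapped almost wholly, and the highest Control value was that of Control M01. On the log2 scale the change was -0.10 (SE 0.24) in Dehydrated against Control and -0.24 (SE 0.25) in Rehydrated against Control. Without Control M01 these were 0.04, on the other side of 0, and -0.08. The adjusted p was 0.929 and 0.829 with all libraries.

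Aqp4, the water channel of astrocyte endfeet (ENSJJAG00000010534, chromosome 15, 27872466 to 27883415, minus strand), had lowest, median and highest levels of 241, 332 and 426 CPM in Dehydrated libraries and of 290, 317 and 361 CPM in Rehydrated libraries. In Control libraries they were 45.8, 314 and 484 CPM. The lowest value was that of Control M01 and the next lowest Control library had 239.8 CPM, while the medians of the 3 groups were close. The log2 fold change was 0.12 (SE 0.20) in Dehydrated against Control and 0.11 (SE 0.21) in Rehydrated against Control. Without Control M01 it was -0.01 and -0.03, and the 95% interval for Dehydrated against Control narrowed to -0.23 to 0.20. By letter, F-named Control libraries had 297, 397 and 484 CPM as lowest, median and highest, and M-named ones 45.8, 254 and 331 CPM, or 239.8 to 331 CPM without Control M01. The log2 fold change in Dehydrated against Control was -0.29 (SE 0.26) within F-named and 0.61 (SE 0.26) within M-named libraries, or 0.35 (SE 0.12) there without Control M01, none past the threshold.

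The proteins that hold aquaporin-4 in the endfoot membrane form the dystrophin complex. Of its 9 genes tested, 0 passed in any of the 3 treatment comparisons, and 0 had an unadjusted p under 0.05. Dmd, which encodes dystrophin, had a log2 fold change of 0.17 (SE 0.15) in Dehydrated against Control, or 0.06 without Control M01. The median over the 9 genes was 0.03, and -0.05 without Control M01.

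Slc1a2, the glutamate transporter GLT-1 (ENSJJAG00000017687, chromosome 8, 43618354 to 43775847, plus strand), had lowest, median and highest levels of 150.4, 170.3 and 226 CPM in Dehydrated libraries and of 162, 177 and 280.2 CPM in Rehydrated libraries. In Control libraries they were 16.9, 169.8 and 295 CPM. Control libraries were the most spread for this gene even without Control M01, from 106 to 295 CPM. The RefSeq model runs 2948 bases past the 3' end of the counted Ensembl model, so reads beyond it were not counted for this gene; for Slc1a3 the overhang is 1154 bases. Its log2 fold change was 0.04 (SE 0.25) in Dehydrated against Control and 0.08 (SE 0.26) in Rehydrated against Control. It was -0.09 and -0.07 without Control M01, with adjusted p-values of 0.953 or more.

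Slc1a3, the glutamate transporter GLAST (ENSJJAG00000011327, chromosome 13, 70759449 to 70872057, minus strand), was among the steadiest of the 10. Its levels were 340, 372 and 489 CPM as lowest, median and highest in Dehydrated libraries, 359, 395 and 463 CPM in Rehydrated libraries, and 202, 369.7 and 429 CPM in Control libraries. The lowest value was again that of Control M01, and the next Control library had 328 CPM. On the log2 scale the change was 0.13 (SE 0.09) in Dehydrated against Control (adjusted p = 0.803) and 0.18 (SE 0.09) in Rehydrated against Control (unadjusted p = 0.0546, adjusted p = 0.668 by edgeR's quasi-likelihood test). Slc1a3 exceeded the Control median in 7 of 9 Rehydrated libraries. Without Control M01 these changes were 0.07 and 0.11.

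Glul, the glutamine synthetase that turns the glutamate taken up into glutamine (ENSJJAG00000000531, chromosome 1, 295513471 to 295521648, plus strand), had 169.6, 216 and 262 CPM as lowest, median and highest levels in Dehydrated libraries. Rehydrated libraries had 165, 223 and 269 CPM, and Control libraries 163, 204 and 261 CPM. The ranges of the 3 groups nearly coincided. The log2 fold change was 0.11 (SE 0.10) in Dehydrated against Control and 0.08 (SE 0.10) in Rehydrated against Control. Without Control M01 the second was 0.13. A rise of more than 1.24-fold or a fall below 0.942-fold in Dehydrated against Control lay outside the 95% interval.

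Of 12 other genes of the glutamate-glutamine cycle that were tested, 0 passed in any treatment comparison by edgeR or DESeq2, and 1 had an unadjusted p under 0.05 in Dehydrated against Control. This was Slc38a3, the glutamine exporter SNAT3 of astrocytes, at 46.6 CPM in Dehydrated and 58.3 CPM in Control on average. Its log2 fold change was -0.32 (SE 0.10; unadjusted p = 0.00374, adjusted p = 0.497 by edgeR's quasi-likelihood test). Slc38a2, a neuronal glutamine transporter, had 0.24 (SE 0.12; adjusted p = 0.774), or 0.16 without Control M01. The median over the 12 genes was -0.02, and -0.03 without Control M01.

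Gja1, which encodes connexin 43, the main gap-junction protein of astrocytes (ENSJJAG00000004532, chromosome 9, 45746507 to 45759270, minus strand), had lowest, median and highest levels of 329, 443 and 521 CPM in Dehydrated libraries. These were 322, 486 and 545 CPM in Rehydrated libraries and 406, 431 and 618 CPM in Control libraries. No group stood clear of another, as for all but 1 of the 17558 genes tested. Its log2 fold change was -0.09 (SE 0.10) in Dehydrated against Control and 0.00 (SE 0.10) in Rehydrated against Control, or -0.05 and 0.05 without Control M01.

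Gjb6, which encodes connexin 30, the second astrocyte connexin (ENSJJAG00000025652, chromosome 7, 30297151 to 30306858, plus strand), was the member with the smallest p in Dehydrated against Control. Its lowest, median and highest levels were 48.2, 59.0 and 72.2 CPM in Dehydrated libraries, 51.0, 68.1 and 78.9 CPM in Rehydrated libraries, and 51.2, 75.6 and 98.4 CPM in Control libraries. The highest value was that of Control M01. Of 10 Dehydrated libraries 0, and 2 of 9 Rehydrated libraries, lay above the Control median. On the log2 scale the change was -0.30 (SE 0.11) in Dehydrated against Control (unadjusted p = 0.00885, adjusted p = 0.623 by edgeR's quasi-likelihood test), a 95% interval of 0.698 to 0.945-fold. It was -0.16 (SE 0.11) in Rehydrated against Control. Without Control M01 the change in Dehydrated against Control was -0.26 (SE 0.10, adjusted p = 0.769 by edgeR's quasi-likelihood test). The authors' deposited table also has -0.26 for Dehydrated against Control, with an adjusted p of 0.593. For Aqp4 and Slc1a2 the deposited values, -0.015 and -0.091, are those that DESeq2 gave here without Control M01.

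The Control libraries fell into separate ranges for Gjb6 by the letter in their names. F-named Control libraries had 51.2, 59.9 and 69.4 CPM as lowest, median and highest levels, and M-named Control libraries 81.7, 92.7 and 98.4 CPM (n = 5 each). Control F03, labelled male, was at 51.2 CPM and Control M05, labelled female, at 95.2 CPM, so the ranges followed the letter and not the sex label. The log2 difference, F-named over M-named, was -0.62 (SE 0.10; adjusted p = 0.00237 by edgeR's quasi-likelihood test, a comparison chosen after the data were seen). Among all genes tested 0.604% had an adjusted p under 0.05 in that comparison, and values did not overlap for 2.49%. For the other 9 genes the F-named and M-named Control values overlapped.

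Within the F-named libraries 0 of the 10 genes passed in Dehydrated against Control, where 0.0626% of all genes did, and 0 had an unadjusted p under 0.05, where 4.24% did. DESeq2 gave an adjusted p of 1.00 for Gjb6 there. With Control M01 left out of the fit, 1 of the 10, Aqp4, had an unadjusted p under 0.05 within F-named libraries. Its log2 fold change was -0.29 (SE 0.12, unadjusted p = 0.0188, adjusted p = 0.715 by edgeR's quasi-likelihood test). Of all genes 1097 of 17545 had an unadjusted p under 0.05 in that fit within F-named libraries. Gjb6 had 56.2, 61.1 and 72.2 CPM as lowest, median and highest levels in Dehydrated and 51.2, 59.9 and 69.4 CPM in Control (n = 5 each), which overlap, while values did not overlap for 0.917% of all genes. The log2 fold change there was 0.07 (SE 0.10; adjusted p = 1.00). Within the M-named libraries Gjb6 had 48.2, 58.7 and 68.4 CPM in Dehydrated and 81.7, 92.7 and 98.4 CPM in Control (n = 5 each). These do not overlap, as for 2.84% of all genes. Gjb6 fell there by 0.66 on the log2 scale (SE 0.10, adjusted p = 0.00297 by edgeR's quasi-likelihood test), and by 0.62 without Control M01 (adjusted p = 0.00361). Gjb6 was the 1 member that passed within M-named libraries, where 0.262% of all genes did, and 0.16% without Control M01. Unadjusted p-values under 0.05 were found there for 4 of the 10, Gjb6, Aldh1l1, Aqp4 and Slc1a3, and for 13.8% of all genes. Without Control M01 the 4 were Gjb6, Aldh1l1, Aqp4 and S100b, as for 8.89% of all genes, and the Slc1a3 value there was 0.17, against 0.29 with it. For S100b it was 0.69, against 0.47 with it. M-named Rehydrated libraries, at 65.6, 69.2 and 78.9 CPM, lay below all 5 M-named Control libraries, as for 1.15% of genes, with a log2 fold change of -0.34 (SE 0.10) that did not pass (unadjusted p = 0.00314, adjusted p = 0.313).

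The difference between the letters in the Gjb6 response to dehydration, F-named minus M-named, was 0.73 on the log2 scale (SE 0.15). Its adjusted p was 0.0558 with all 29 libraries, where 0.0513% of genes passed, and 0.0475 without Control M01, where 0.0912% passed. With each library left out in turn the adjusted p ran from 0.0248 to 0.162 and passed in 5 of 29 cases, without Control M01 (0.0475), Control F01 (0.0289), Dehydrated F03 (0.046), Rehydrated F05 (0.0317) or Dehydrated M06 (0.0248). By DESeq2 it was 0.0026, where 58 of 17210 genes passed. The split by letter was chosen after the data were seen. This difference and the fall within M-named libraries use the same M-named Control libraries, so they are not separate results. In Dehydrated the log2 difference in Gjb6, F-named over M-named, was 0.11 (SE 0.10, unadjusted p = 0.312 by edgeR's quasi-likelihood test). In Rehydrated it was -0.21 (SE 0.11). What sets the M-named Control libraries apart was not tested, and the order of library numbering cannot be told apart from the letter, nor within a letter from the treatment.

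**Figure D2:**
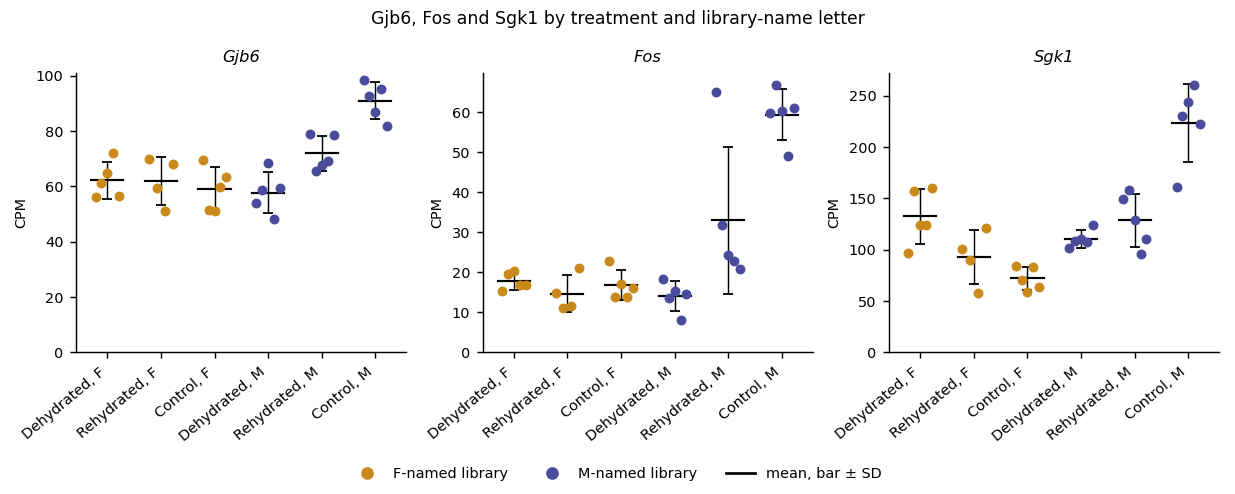
Levels of Gjb6, Fos and Sgk1 in CPM by letter of the library name (F, then M) and treatment (Dehydrated, Rehydrated, Control), with points for libraries and bars for mean ± SD. M-named Control libraries lie highest for Gjb6, at 81.7 to 98.4 CPM, and for Sgk1, at 161 to 261 CPM. For Fos they lie at 49.1 to 66.8 CPM, and Rehydrated M01, at 65.2 CPM, lies within that range.

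The genes whose library-to-library pattern was most like that of Gjb6, once group and sex means were removed, were Fos, Csrnp1 and Sgk1. Their Spearman rho with Gjb6 over 28 libraries without Control M01 was 0.81, 0.80 and 0.75, among 12199 named genes that averaged 1 log2 CPM or more. Fos encodes an immediate-early transcription factor, and Sgk1 a kinase whose transcript is known to answer to glucocorticoids and to salt. In Control, Fos was at 13.8 to 22.9 CPM in F-named libraries and 49.1 to 66.8 CPM in M-named libraries. Sgk1 was at 58.7 to 84.0 CPM in F-named and 161 to 261 CPM in M-named Control libraries. In Dehydrated, M-named libraries had 8.20 to 18.4 CPM of Fos and 102 to 124 CPM of Sgk1. F-named Dehydrated libraries had 15.2 to 20.3 CPM of Fos and 96.6 to 160 CPM of Sgk1. Thus Sgk1 lay above its F-named Control range there, and values of these 2 groups did not overlap for 0.917% of all genes. The letter was not removed before the ranking, and Gjb6, Fos and Sgk1 were each higher in all 5 M-named than in any F-named Control library. The part of these genes in the Gjb6 values was not tested.

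Other connexins and the junction scaffold Tjp1 gave 0 of 7 genes past the threshold in each treatment comparison by edgeR and DESeq2, and 0 at an unadjusted p under 0.05. Gjb2, which encodes connexin 26 and was added to the genes named by rule, had a log2 fold change of -0.07 in Dehydrated against Control, or -0.02 without Control M01. Gjb1, an oligodendrocyte connexin, had -0.17 (SE 0.20), or -0.11 without it, and Gja5, a vascular connexin, had 0.29 (SE 0.48), or 0.17 without it.

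Aldh1l1, a folate enzyme and general astrocyte marker (ENSJJAG00000012446, chromosome 6, 38921916 to 38972348, plus strand), had 39.5, 81.7 and 137 CPM as lowest, median and highest levels in Dehydrated libraries. In Rehydrated libraries these were 51.8, 67.6 and 82.1 CPM, and in Control libraries 58.2, 72.4 and 87.5 CPM. Dehydrated libraries held both the lowest and the highest values. In 8 of 10 Dehydrated libraries Aldh1l1 exceeded the Control median, and the log2 fold change was 0.27 (SE 0.15; unadjusted p = 0.0816, adjusted p = 0.788 by edgeR's quasi-likelihood test). Among M-named libraries Dehydrated values, from 79.3 to 137 CPM, did not overlap Control values, from 58.2 to 74.6 CPM. The log2 fold change there was 0.63 (SE 0.19) and did not pass (adjusted p = 0.175), and it was -0.11 within F-named libraries. Values did not overlap between these M-named groups for 2.84% of all genes.

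S100b, a calcium-binding protein of astrocytes and some oligodendrocyte precursors (ENSJJAG00000026832, chromosome 5, 169809352 to 169820695, plus strand), had lowest, median and highest levels of 108, 214 and 298 CPM in Dehydrated libraries. Rehydrated libraries had 114, 201 and 290.4 CPM, and Control libraries 118, 157 and 315 CPM. In 9 of 10 Dehydrated libraries S100b exceeded the Control median, though the highest value was a Control one. The log2 fold change was 0.26 (SE 0.18) in Dehydrated against Control (adjusted p = 0.803) and 0.03 (SE 0.19) in Rehydrated against Control. Without Control M01 the second was 0.10.

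The comparison of Rehydrated with Control again gave 0 of 10 genes past the threshold by edgeR and by DESeq2, with and without Control M01, and 0 with an unadjusted p under 0.05. Over all genes 0% passed in edgeR, 0.0624% in DESeq2 and 0.0156% in DESeq2 without Control M01, and 7.48% had an unadjusted p under 0.05. The median log2 fold change of the 10 was 0.02, or -0.05 without Control M01, beside 0.003 over all genes. In Rehydrated against Dehydrated 0 of 10 passed by either tool, where 0.0228% of genes did in edgeR, 0.0624% in DESeq2 and 0.0741% in DESeq2 without Control M01. Among the 10, 1 had an unadjusted p under 0.05 against 3.88% of all genes. This was Aldh1l1, with a log2 fold change of -0.40 (SE 0.155; unadjusted p = 0.0161, adjusted p = 1.00 by edgeR's quasi-likelihood test), at 67.1 ± 9.90 CPM in Rehydrated and 88.1 ± 30.3 CPM in Dehydrated (SD, n = 9 and 10). Both comparisons share samples with the first, Control libraries in one and Dehydrated libraries in the other.

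**Figure D3:**
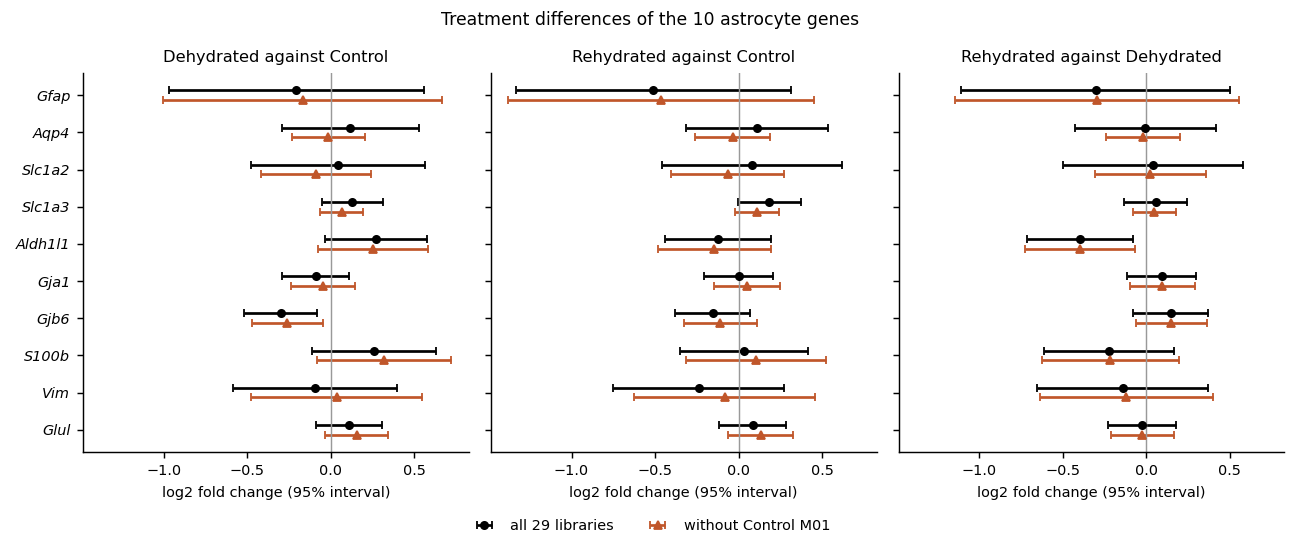
Log2 fold change of each astrocyte gene in the 3 treatment comparisons, with 95% intervals, from all 29 libraries (circles) and without Control M01 (triangles). Intervals are widest for Gfap, from -0.97 to 0.56 in Dehydrated against Control, and leave out 0 for Gjb6 there (-0.52 to -0.08) and for Aldh1l1 in Rehydrated against Dehydrated (-0.71 to -0.08), before any adjustment for 17558 genes.

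The 10 genes differed in how steady they were between libraries. The coefficient of variation between libraries was 14.6% for Slc1a3, 15.5% for Glul, 15.9% for Gja1 and 16.7% for Gjb6, near the median of 13.1% of genes of at least 5 log2 CPM. It lay between 23.4% for Aldh1l1 and 39.4% for Slc1a2 in the other genes but Gfap, with 28.2% for S100b, 36.8% for Vim and Aqp4 between these. For Slc1a2 and Aqp4 most of the range came from Control M01: the highest library had 17.4 and 10.6 times the lowest, and 2.80 and 2.02 times without it. For Gfap the ratio was 18.3 with and without it. Per length, Gfap was the highest of the 10, at 327 ± 189 CPM per kb in Control (SD, n = 10), followed by Gja1 at 146 ± 24.3, Aqp4 at 126 ± 49.6, S100b at 124 ± 42.1 and Slc1a3 at 122 ± 20.9 CPM per kb. Vim (90.2), Glul (86.6), Slc1a2 (59.4), Gjb6 (29.5) and Aldh1l1 (23.5 CPM per kb) followed. No neighbours in this order were apart by more than the sum of their SDs. Gfap also stood first in Dehydrated and Rehydrated libraries, at 277 ± 113 and 211 ± 116 CPM per kb.

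Gfap separated the Control libraries by sex label, a comparison made after the data were seen. Female Control libraries had 997, 1303 and 1894.5 CPM as lowest, median and highest levels, and male Control libraries 103, 483 and 957 CPM (n = 5 each), with no overlap, as for 0.923% of all genes. The log2 difference, female over male, was 1.36 (SE 0.47) and did not pass (unadjusted p = 0.00829, adjusted p = 0.370 by edgeR's quasi-likelihood test; 10.1% of genes had an unadjusted p under 0.05 and 0.0342% passed). Without Control M01 it was 1.68 (adjusted p = 0.641). By the letter of the name in place of the label it was 0.99 (adjusted p = 0.325), and the values overlapped. In Dehydrated and in Rehydrated the log2 difference between females and males was 0.12 and -0.67, with SEs of 0.48 and 0.50. Beside the Gfap values, the summed level of 7 leptomeningeal genes was 77.1 to 134 CPM in female and 50.04 to 93.3 CPM in male Control libraries, and that of 12 neuronal genes 7942 to 8811 and 7229 to 9457 CPM. Sums of 12 magnocellular genes were 3285 to 5725 and 2843 to 3950 CPM, and those of 3 blood genes 114 to 259 and 144 to 807 CPM. Female and male Control sums overlapped for each of the other marker lists too. The part of these lists in the Gfap values was not tested.

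The response to treatment did not pass a test of difference between the sexes for any of the 10 genes. By edgeR, 0 of 10 passed in each treatment comparison, as did 0% of all genes, and 2, 2 and 1 of the 10 had an unadjusted p under 0.05 in Dehydrated against Control, Rehydrated against Control and Rehydrated against Dehydrated. They were Aqp4 and Aldh1l1, Gfap and Slc1a3, and Aldh1l1. Over all genes this share was 6.05%, 6.18% and 2.53%. Without Control M01 there were 3 (Gfap, Aqp4 and Aldh1l1), 3 (Gfap, Aqp4 and Vim) and 1 (Aldh1l1), and again 0 passed. Of all 17545 genes tested without it, 882, 988 and 698 had an unadjusted p under 0.05, and 0 passed. DESeq2 was not run for this difference. The largest difference was that of Gfap in Rehydrated against Control, with a log2 fold change of -1.57 in females and 0.46 in males, or 0.78 in males without Control M01. That difference was -2.03 (SE 0.69; unadjusted p = 0.00705, adjusted p = 0.799).

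Pairs of the 10 genes were compared across the 29 libraries as log2 CPM, with 100000 permutations and Benjamini-Hochberg adjustment over 6 pairs. Gfap and Vim, the pair of filaments, varied together, with Pearson's r of 0.70 (permutation p = 1e-05, the smallest these permutations can give, adjusted p = 6e-05) and Spearman's rho of 0.65 (permutation p = 0.00029, adjusted p = 0.00174). Without the 2 libraries farthest from the Gfap median r was 0.64 (adjusted permutation p = 0.0027). Within groups r was 0.39 in Dehydrated, 0.53 in Rehydrated and 0.86 in Control, where the adjusted permutation p was 0.322, 0.418 and 0.0237. Within F-named and M-named libraries it was 0.43 and 0.84, with an adjusted permutation p of 0.273 and 0.00042.

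Gfap and Aqp4 gave r of 0.14 (permutation p = 0.481, adjusted p = 0.496) and rho of 0.53 (permutation p = 0.00377, adjusted p = 0.0113). Without Control M01 r was 0.59 (adjusted permutation p = 0.003) and rho 0.58 (adjusted permutation p = 0.00444). Without the 2 libraries farthest from the Gfap median, which keeps Control M01, r was 0.13. Within F-named libraries r was 0.69 (adjusted permutation p = 0.0161) and within M-named libraries -0.03 (adjusted permutation p = 0.914), where rho was 0.26. The M-named value takes in Control M01, and without it r was 0.48 (adjusted permutation p = 0.12) and rho 0.38 over 14 libraries. The glutamate transporters Slc1a2 and Slc1a3 gave r of 0.78 (permutation p = 0.00168, adjusted p = 0.00504) and rho of 0.29 (permutation p = 0.129, adjusted p = 0.194). That r rested on Control M01: without it r was 0.32 (adjusted permutation p = 0.17), and without the 2 libraries farthest from the Slc1a2 median 0.39 (adjusted permutation p = 0.128). Within F-named libraries it was -0.20, and within M-named libraries 0.89, or 0.62 without Control M01 (adjusted permutation p = 0.0541). Gja1 with Gjb6, Slc1a2 with Glul and Aldh1l1 with S100b gave r of 0.27, -0.14 and 0.28 and rho of 0.32, 0.05 and 0.17, with adjusted permutation p-values of 0.234, 0.496 and 0.234 for r.

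**Figure D4:**
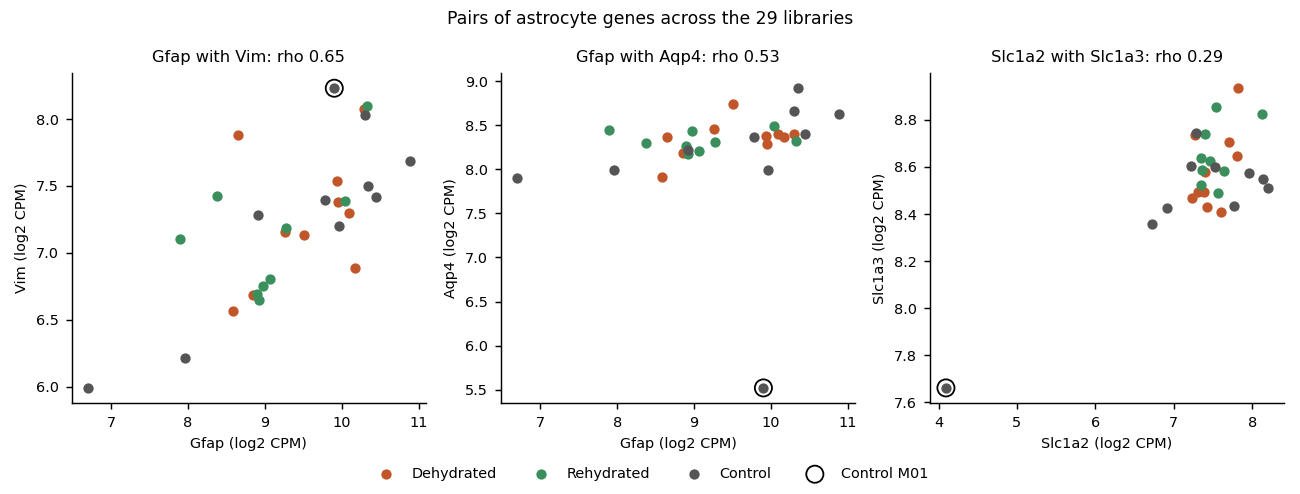
Log2 CPM of Vim against Gfap, Aqp4 against Gfap and Slc1a3 against Slc1a2 in the 29 libraries, coloured by treatment, with Control M01 ringed. Gfap and Vim run together (rho 0.65), and Control M01 lies far from the other points in the panels of Aqp4 and of the transporters (rho 0.53 and 0.29).

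After group and sex means were removed, 5 of the 45 pairs among the 10 genes had a Spearman rho above 0.5 over the 28 libraries without Control M01. These joined S100b with Vim (0.75), Gfap with Vim (0.67), Aqp4 with Vim (0.63), and Gfap with Aqp4 and with S100b. The median over the 45 pairs was 0.07 and 17 were below 0, the lowest being Aqp4 with Gjb6 (-0.36). Thus the pairs above 0.5 all lay among Gfap, Vim, S100b and Aqp4, and none took in a transporter, a connexin, Glul or Aldh1l1.

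Genes outside the 10 that ranked nearest differed from member to member. Nearest to Vim were Anxa1, which encodes annexin A1, Itgb4 and Hey2, with a rho of 0.87, 0.83 and 0.82, and Anxa1 also ranked near S100b (0.77). Nearest to Gfap were Olfml3 (0.85), BC024139 (0.85) and Eppk1 (0.83), and nearest to Aqp4 was Ahnak (0.83). Vim stood at place 61 of 12199 for Gfap, and S100b at place 13 for Vim. For Slc1a2, Slc1a3, Aldh1l1, Gja1, Gjb6 and Glul the nearest other member stood at place 700 or farther.

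Of 37 other astrocyte-enriched genes tested, 0 passed in any treatment comparison by edgeR or DESeq2. In Dehydrated against Control 10 lay above 0 and 27 below, with a median of -0.03 on the log2 scale, or -0.06 without Control M01, and 2 had an unadjusted p under 0.05. These were Htra1, a secreted protease, with a log2 fold change of -0.18 (SE 0.07), and Pla2g7, a secreted phospholipase, with -0.46 (SE 0.20). In Rehydrated against Control 12 lay above 0 and 25 below, with a median of -0.06 and 5 at an unadjusted p under 0.05. These 5, chosen after their values were seen, all lay below 0: Htra1 (-0.18), Fjx1 (-0.41), Sox9 (-0.31), a glial transcription factor, Ttyh1 (-0.16), and Apoe (-0.27, or -0.18 without Control M01), the lipid carrier, with adjusted p-values of 0.581 to 0.639. Over all genes 49.2% and 50.8% lay above 0. Of 19 genes known to be induced in reactive mouse astrocytes, 0 passed in each treatment comparison by either tool, 10 lay above 0 in Dehydrated against Control, and 0 had an unadjusted p under 0.05 there. Steap4 had a log2 fold change of 0.81 (SE 0.45; adjusted p = 0.787), and S100a10 -0.24 (SE 0.14), or -0.12 without Control M01.

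Genes linked to the movement and adhesion of glial processes gave 0 of 20 past the threshold in each treatment comparison by either tool. In Dehydrated against Control 1 had an unadjusted p under 0.05. This was Msn, which encodes moesin, a linker of membrane and actin, at 93.7 CPM in Dehydrated and 72.9 CPM in Control on average, with a log2 fold change of 0.36 (SE 0.13; unadjusted p = 0.0091, adjusted p = 0.629 by edgeR's quasi-likelihood test). The small GTPase Rac1 had -0.10 (SE 0.05). Ezr, the related linker ezrin of fine astrocyte processes, was chosen after its values were seen: it averaged 17.2 CPM in Rehydrated, 10.6 CPM in Dehydrated and 10.2 CPM in Control, with a log2 fold change of 0.78 (SE 0.23) in Rehydrated against Control (adjusted p = 0.467). Genes of taurine handling and cell-volume control, by which astrocytes of this nucleus are known to signal osmolality in the rat, gave 0 of 11 past the threshold in each comparison by either tool and 1 at an unadjusted p under 0.05 in Dehydrated against Control. That was Srr, with a log2 fold change of 0.24 (SE 0.11). Srr, the serine racemase, was listed with these genes but is not itself one of taurine handling or cell-volume control. Slc6a6, the taurine transporter, had 0.22 (SE 0.16), or 0.12 without Control M01.

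The same libraries did carry changes in some genes of magnocellular neurons, a list chosen with earlier results of these data known. Of 12 genes of magnocellular neurons 4 rose in Dehydrated against Control (Avp, Pdyn, Caprin2 and Glp1r, log2 fold changes of 0.98 to 1.81), where 0.125% of all genes passed in either direction. Of these 4, 2 did without Control M01, Pdyn and Caprin2, where 0.0969% of all genes passed. With all libraries the other 8 did not pass. Of the 12 genes 3, named after their values were seen, lay below 0: Pou3f2 (-0.08), Oxt (-0.07) and Otp (-0.04). Summed levels of the 10 astrocyte genes were 2167 to 3405 CPM in Dehydrated, 2307 to 3658 CPM in Rehydrated and 1744 to 4228 CPM in Control. Without Gfap they were 1783 to 2360, 1846 to 2376 and 1641 to 2410 CPM. Of the other marker lists, all 11 oligodendrocyte genes were detected and their sums had medians of 3148, 3532 and 4225 CPM in Dehydrated, Rehydrated and Control. Sums of 12 neuronal genes had medians of 8806, 8665 and 8370 CPM, and those of 3 blood genes 56.6, 172 and 203 CPM. None of these lists had a gene at 0 in all libraries, and of the 3 lists 0 genes passed in edgeR or DESeq2, with 0, 0 and 2 (Alas2 and Hba1, both lower) at an unadjusted p under 0.05 in Dehydrated against Control. Their part in the astrocyte values was not tested.

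**Figure D5:**
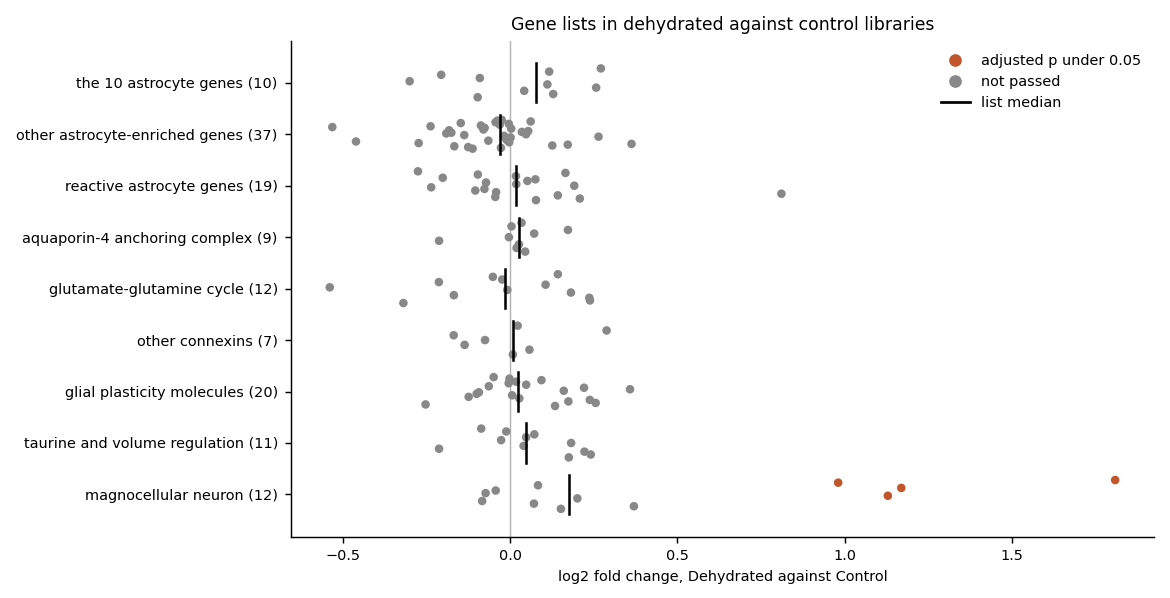
Log2 fold change in Dehydrated against Control of the tested genes of each list, with list medians as lines and genes with an adjusted p under 0.05 in orange. The astrocyte lists centre near 0 with medians from -0.03 to 0.08, and the 4 orange genes are in the magnocellular list.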

How the data were processed

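The header of the deposited table names featureCounts 1.6.2, with which the authors counted read pairs per Ensembl gene (assembly mJacJac1) without a strand option, so the counts do not separate antisense RNA. The submitters' processing notes list FastQC and DESeq2; no aligner is named. The authors' deposited comparison tables give log2 fold changes, p-values and adjusted p-values; their 56 columns of values per library were not used here. Of 29170 genes 9699 took their name from the authors' tables and 5594 from RefSeq, where the spans shared at least 0.5 of each other.

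From the deposited counts, a robust quasi-likelihood model of group and sex over the 29 libraries was fitted with edgeR 4.0.16 (R 4.3.3) after filterByExpr and TMM scaling, leaving 25 residual degrees of freedom and 17558 genes, over which p-values were adjusted (Benjamini-Hochberg, threshold 0.05). Sex and name letter were tested in models of 6 cells. CPM used TMM-scaled totals, log2 CPM added a prior count of 2, and the SE was the log2 fold change over the root of F. Alternatives were DESeq2 1.42.0, other scalings, filters and covariates, a replicate block, and each library left out. In all 126 pairs replicates differed beyond sampling noise (chi-square per degree of freedom 8.90 to 162). The scripts were tested on simulated data.

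Members, lists and rules were chosen with earlier results of these data known. The text names the 10 members; of each list the genes past the threshold (up to 6), or else the 2 of smallest p in Dehydrated against Control; and the 3 genes likest each member. A gene that this rule names is not reported here. Comparisons by letter and of the sexes within a group were added after seeing the data.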

Additional observations from a re-analysis of the deposited data

Results flagged for a closer look

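Of 30 sets of values, each gene in each group, 3 held a library whose distance from its nearest neighbour was large for the group's range; chance alone gives this in about 1 set in 20. Slc1a2 in Rehydrated M01 was at 280.2 CPM, and the next Rehydrated library at 199.6 CPM. Vim in Rehydrated M06 was at 274 CPM, and the next at 172 CPM. Slc1a3 in Control M01 was at 202 CPM, and the next Control library at 328 CPM.

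The response of Gjb6 to dehydration differed between F-named and M-named libraries by 0.70 on the log2 scale when Control M01 was left out (adjusted p = 0.0475 by edgeR's quasi-likelihood test). It was 0.08 within F-named and -0.62 within M-named libraries. With all libraries the adjusted p was 0.0558, which did not pass, and it passed in 5 of 29 fits with a library left out. The split by letter was chosen after the data were seen.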

How the results depend on the processing

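None of the 10 genes passed in any treatment comparison under any alternative run, 0 to 0 with each library left out; the lowest adjusted p was 0.405 (Gjb6), 0.562 (Slc1a3) and 0.59 (Aldh1l1) in Dehydrated against Control, Rehydrated against Control and Rehydrated against Dehydrated. Over all genes, Dehydrated against Control gave 22 calls, 44 by DESeq2, 47 by DESeq2 without Control M01, 11 with only the compared groups and 10 to 27 with a library left out. Rehydrated against Control gave 0, then 16, 4, 0 and 0 to 2, and Rehydrated against Dehydrated 4, then 16, 19, 1 and 2 to 9. The causes were not tested. Name codes did not pair libraries: deviations of 19 same-code pairs correlated at -0.115 to 0.11, 2 of them over 0.1, and 2 of 23 libraries matched a namesake best. With the replicate block, 15, 0 and 7 genes passed, and the log2 fold change was 0.18 for Gfap and 0.22 for Vim in Dehydrated against Control and 0.061 for Aqp4 in Rehydrated against Dehydrated, turning the sign of each. Of 100 values per comparison, each of a member under another alternative, 5, 3 and 1 changed sign. Of 290 values with a library left out (10 members by 29 libraries) 5, 23 and 13 did. None made a member pass. Signs also turned by DESeq2 without Control M01, in Dehydrated against Control for Aqp4 (-0.015), Slc1a2 (-0.091) and Vim (0.035) and in Rehydrated against Control for Aqp4 (-0.033) and Slc1a2 (-0.065), and with upper-quartile scaling for Gja1 (-0.019) in Rehydrated against Control. With a library left out, ranges across 0 in Dehydrated against Control were -0.015 to 0.20 (Aqp4), -0.091 to 0.16 (Slc1a2) and -0.22 to 0.036 (Vim). In Rehydrated against Control they were -0.035 to 0.19 (Aqp4), -0.066 to 0.19 (Slc1a2), -0.026 to 0.059 (Gja1) and -0.069 to 0.15 (S100b). In Rehydrated against Dehydrated they were -0.050 to 0.068 (Aqp4), -0.050 to 0.082 (Slc1a2), -0.30 to 0.0032 (Vim) and -0.067 to 0.014 (Glul).

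Pearson's r of Gfap with Vim no longer passed within Dehydrated (0.387), Rehydrated (0.531) or F-named libraries (0.432). That of Gfap with Aqp4 passed within F-named libraries (0.69) and without Control M01, in all libraries (0.589) and in Control (0.756); within M-named libraries, Control M01 among them, it was -0.031, and without that library 0.484, neither past the threshold. That of Slc1a2 with Slc1a3 did not pass within Dehydrated (0.533), Rehydrated (0.467) or Control (0.881), without the 2 farthest libraries (0.393) without Control M01 (0.317), or without it within M-named (0.615) or Control libraries (0.244), and was -0.20 within F-named libraries. Signs turned for Gja1 with Gjb6 within Dehydrated (-0.39), for Slc1a2 with Glul within Rehydrated (0.21), without the 2 farthest (0.216) and without Control M01 (0.235; 0.531 within M-named and 0.478 within Control libraries), and for Aldh1l1 with S100b within Rehydrated (-0.185) and Control (-0.0639). The difference between letters in the Gjb6 response was 0.74 by DESeq2 and passed there, and was 0.67 to 0.80 with a library left out, with both sides of the threshold among them.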
